A study of Mus musculus with 15 samples.

Results

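The 10 genes described here mark oligodendrocyte progenitor cells. They were taken by name from a list chosen with earlier results of these data known. They are Olig1, Olig2, Sox10, Nkx2-2, Cspg4, Gpr17, Bcan, C1ql1, Cacng4 and Lhfpl3. All 10 were found among the 54232 genes of the deposited tables, and all 10 passed the filter on low values in every comparison. The RNA came from 15 mouse tumours of the frontal cortex.

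All mice were C57BL/6 and carried Tv-a, the receptor for an avian virus, under the Nestin promoter, so that the virus enters Nestin-expressing cells, and all carried floxed Trp53. Chicken DF-1 cells injected into the cortex delivered RCAS viruses in every group, which carried Cre, PDGFA and a histone H3.3 with a GFP tag. The groups were ATRXfl_G34R (floxed Atrx, H3.3G34R, n = 4), ATRXfl_WT (floxed Atrx, H3.3WT, n = 4), p53_G34R (no floxed Atrx, H3.3G34R, n = 3) and p53_WT (no floxed Atrx, H3.3WT, n = 4). Atrx encodes a chromatin remodeller that helps to deposit H3.3, and H3.3G34R is a histone substitution of human gliomas. Collection was at the functional end point of each mouse, so that no set time since injection is given, and no age or sex is given. The virus adds a histone to cells that still have the H3.3 genes of the mouse, and no group lacks PDGFA or has intact Trp53. No label says that the libraries of a group came from separate mice, and the p-values below measure the spread between libraries.

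Oligodendrocyte progenitors are the dividing glial cells of the postnatal brain that later make myelin. Their identity rests on the transcription factors Olig2, Sox10 and Nkx2-2, and their growth depends on PDGFA, which acts through the receptor encoded by Pdgfra. Gliomas driven by PDGF often keep this progenitor programme, and Gpr17 marks the short step between a progenitor and a myelinating cell.

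Libraries held 22807315 to 35679129 reads in genes. A normalized count below is the number of reads of a gene in a library after the 15 libraries were scaled together, and a level per kb is that count divided by the summed exon length of the gene. Atrx averaged 2376 ± 619 normalized counts in the floxed libraries and 6687 ± 1395 in those without floxed Atrx (SD, n = 8 and 7). The 2 sets did not overlap, and the two-sided exact permutation test gave p = 0.000311, the smallest it can give. Snap25, a synaptic gene of neurons, lay between 54.9 and 3345 in 14 libraries, and Pdgfra lay between 52093 and 133069.

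The library p53_WT replicate 3 stood apart from the other 14. Its Snap25 count was 37985, and its Pdgfra count was 5471. The 12 neuron genes summed to 287247 there, against 10845 to 40594 in the others, and 11 astrocyte genes to 267317, against 33351 to 85503. The 14 genes of mature oligodendrocytes summed to 135237 there and to 125259 in ATRXfl_G34R replicate 3, against at most 60433 elsewhere. Pdgfa was at 1239 there, against at least 10267 in the others, and whether reads of the PDGFA virus enter this count was not tested. In that library 9 of the 10 progenitor genes were at their lowest of the 15 libraries, against 16.9% of the 17776 tested genes, and Gpr17 was the exception. The log2 difference of that library from the median of the other 14 had a median of -3.04 over the 10 genes (from -4.02 for Lhfpl3 to -2.50 for Olig1) and of 0.01 over all tested genes. Their summed count was 27528 there, against 145283 to 445274 in the other 14. In tumour tissue, fewer progenitor-like cells and less RNA per cell cannot be told apart. The part of normal cortex in these values was not tested, and comparisons between groups that include this library are given with and without it. The first code of its title is shared with p53_WT replicate 4, whose 10 genes summed to 219113. Such a code is also shared by p53_G34R replicates 2 and 3 and by ATRXfl_G34R replicates 1 and 4. The labels do not say whether a shared code means 1 animal or batch. A second number in the title differs between all 15 libraries, and the labels do not say what it stands for. The p53_WT, p53_G34R and ATRXfl_G34R groups may therefore each hold fewer independent samples than their n. With the libraries of a shared code summed, 0 of the 10 genes were called by limma in any of the 8 comparisons. Over all genes that setting called 0 of 17848 in ATRXfl_G34R vs ATRXfl_WT, 0 in ATRXfl_G34R vs p53_G34R and 2 in ATRXfl_WT vs p53_WT. It called 15 between floxed and intact Atrx pooled over both histones. With so few calls over all genes, the 0 of 10 cannot show whether the libraries of a shared code are independent.

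**Figure D1:**
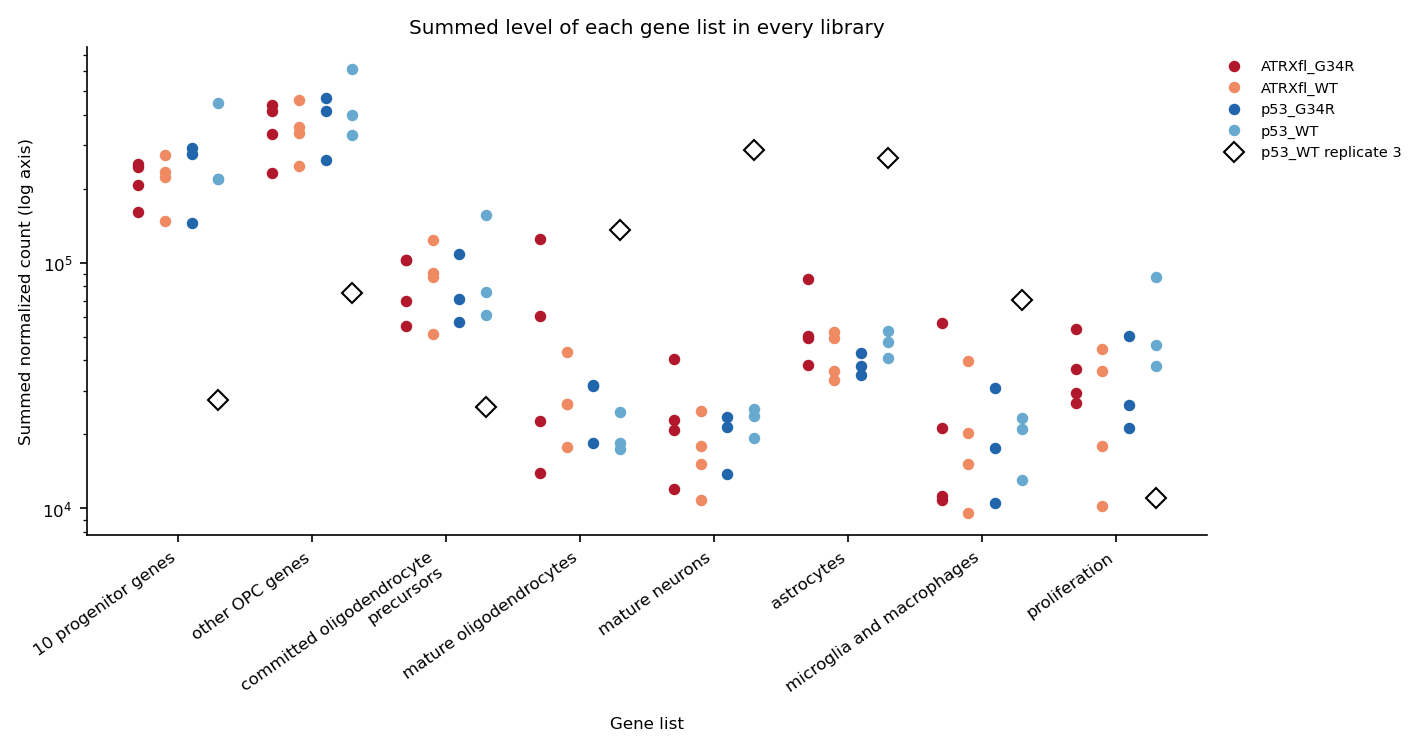
Summed normalized count (log axis) of 8 gene lists in each of 15 libraries, with a point per library and groups in colour. Gpr17 is in the list of 10 progenitor genes and also in that of committed oligodendrocyte precursors. The open diamond is p53_WT replicate 3, which is lowest for the 10 progenitor genes (27528) and highest for mature neurons (287247).

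Promoter windows are shown for 3 genes on which the description below turns: Olig2 and Lhfpl3, which hold a match to a motif of the lineage's factors, and Nkx2-2, which stood apart in a library. RefSeq (GRCm38.p6) gave a window of 300 bases, from 250 before to 50 after the annotated start, for 5 of the 10 genes (Olig2, Nkx2-2, Cspg4, Lhfpl3 and Bcan). Capitals mark CAGCTG, an E-box bound by basic helix-loop-helix factors such as Olig2, and ACAAAG or ACAATG, cores bound by Sox factors, searched on both strands. The marked matches do not overlap. The windows are Olig2 at chr16:91225300-91225599 (plus strand), Nkx2-2 at chr2:147186353-147186652 (minus strand) and Lhfpl3 at chr5:22745804-22746103 (plus strand), each written along the strand of its gene. The RefSeq start of Nkx2-2 lies 7841 bases downstream of the GENCODE start of the gene used for the coordinates below, so that its window lies inside the gene by that annotation. For the other 4 genes the 2 starts differ by 5 to 126 bases.
Olig2: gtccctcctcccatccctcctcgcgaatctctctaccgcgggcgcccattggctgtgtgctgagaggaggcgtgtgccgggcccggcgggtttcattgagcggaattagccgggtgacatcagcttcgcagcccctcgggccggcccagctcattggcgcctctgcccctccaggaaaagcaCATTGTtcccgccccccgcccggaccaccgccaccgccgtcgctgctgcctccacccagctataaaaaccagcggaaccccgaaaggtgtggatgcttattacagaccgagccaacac
Nkx2-2: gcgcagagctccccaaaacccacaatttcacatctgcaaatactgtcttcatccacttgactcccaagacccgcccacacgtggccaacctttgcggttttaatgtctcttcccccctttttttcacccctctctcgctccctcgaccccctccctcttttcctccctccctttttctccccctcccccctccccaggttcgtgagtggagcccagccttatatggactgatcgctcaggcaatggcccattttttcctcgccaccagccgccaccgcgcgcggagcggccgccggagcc
Lhfpl3: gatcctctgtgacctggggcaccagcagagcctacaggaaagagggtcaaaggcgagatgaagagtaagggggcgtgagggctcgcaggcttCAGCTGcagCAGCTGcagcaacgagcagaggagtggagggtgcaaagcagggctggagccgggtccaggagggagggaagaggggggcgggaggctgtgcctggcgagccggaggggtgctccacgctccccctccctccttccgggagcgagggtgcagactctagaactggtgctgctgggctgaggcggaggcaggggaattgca
CAGCTG stood in 1 of the 5 windows (Lhfpl3, at 2 places), against 16.3% of 32851 promoter windows of that length. ACAATG stood in 1 of 5 (Olig2), against 12.6%, and ACAAAG in 0 of 5, against 18.7%. The 5 windows were GC-rich, from 59.7% in Nkx2-2 to 66.0% in Lhfpl3. A match in a window is a run of letters and not a measured binding site.

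The transcription factors come first. Olig2 is a basic helix-loop-helix factor that specifies the lineage, and Olig1 is its paralogue. Both lie on chromosome 16 on the plus strand (mm10, Olig2 at 91225457 to 91228677 and Olig1 at 91269772 to 91271933), with their starts 44315 bases apart. Olig1 stood at 50421, 49764, 64970 and 23391 normalized counts in ATRXfl_G34R, at 37365, 24778, 61433 and 68195 in ATRXfl_WT, at 24240.1, 81111 and 58802 in p53_G34R, and at 91716, 30079, 8871 and 42310.2 in p53_WT. Olig2 stood at 17149, 13799, 21171 and 7934 in ATRXfl_G34R, at 17546, 11877, 22552 and 29455 in ATRXfl_WT, at 9752, 27049.8 and 19751 in p53_G34R, and at 30031, 22219, 2967 and 16489 in p53_WT. For both genes the 4 groups overlapped, p53_WT replicate 1 was the highest library, and ATRXfl_G34R replicate 4 was the lowest beside p53_WT replicate 3.

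The Olig pair moved together between libraries. Over the 14 libraries without p53_WT replicate 3, Pearson's r between their log2 levels was 0.85 and Spearman's rho 0.86 (permutation p = 0.0001 and 0.00016, adjusted over the 45 gene pairs 0.00450 and 0.00720). Without the 2 libraries farthest from the median of Olig1, r was 0.75. Olig2 per kb was 0.24 to 0.41 of Olig1 per kb in 14 libraries and 0.63 in p53_WT replicate 2.

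Sox10, on chromosome 15 (79154908 to 79165240, minus strand), encodes the factor that keeps the lineage and later switches on myelin genes. It stood at 26661, 30450, 25973 and 36352 normalized counts in ATRXfl_G34R, at 25791, 28786, 29493 and 38665 in ATRXfl_WT, at 36601, 25936 and 29923 in p53_G34R, and at 43600.2, 25897, 2521 and 25617 in p53_WT. It was the steadiest of the 10 genes outside p53_WT replicate 3, with 1.70 times between the lowest and the highest of 14 libraries. Its SD of log2 levels over those 14 lay at the 9.55th percentile of the tested genes. The lowest of those 14 was 10.2 times the level in p53_WT replicate 3.

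Between Sox10 and Olig1 no such relation passed the test. Their r with Olig1 over the 14 libraries was 0.08 and their rho 0.15 (permutation p = 0.781 and 0.607, adjusted 0.918 and 0.824), and r was 0.51 without the 2 farthest. Per kb, Sox10 was above Olig1 in 2 of 15 libraries, at 1.101 times Olig1 in ATRXfl_G34R replicate 4 and 1.07 times in p53_G34R replicate 1. In the other 13 it was 0.20 to 0.82 of Olig1.

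**Figure D2:**
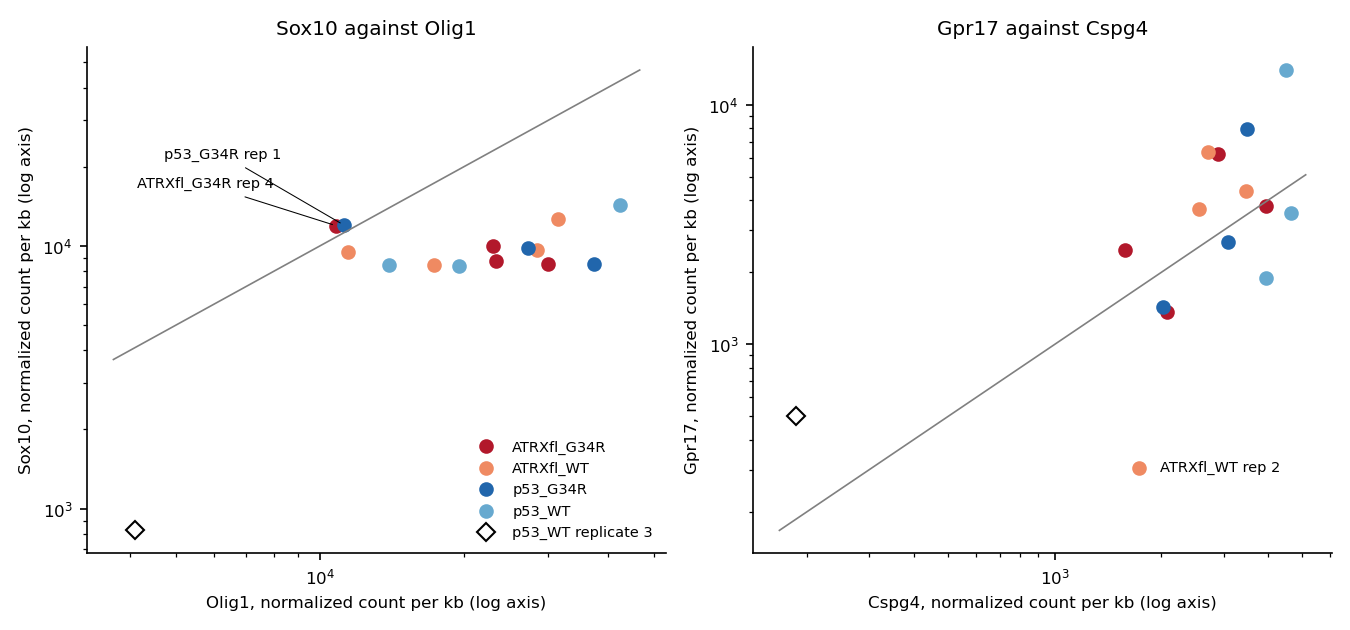
Sox10 against Olig1 (left) and Gpr17 against Cspg4 (right), as normalized counts per kb of exon on log axes, with a point per library and a line at equal levels. Sox10 is above Olig1 in ATRXfl_G34R replicate 4 and p53_G34R replicate 1, and Gpr17 is farthest below Cspg4 in ATRXfl_WT replicate 2.

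Nkx2-2, on chromosome 2 (147177546 to 147194243, minus strand), encodes a homeodomain factor that times the step to myelination. It stood at 2204, 2569, 2583 and 15651 normalized counts in ATRXfl_G34R, at 5448, 2569, 2999.6 and 3019 in ATRXfl_WT, at 1899.7, 3601 and 2584 in p53_G34R, and at 4112, 2693, 219 and 2958 in p53_WT. ATRXfl_G34R replicate 4 was 5.93 times the median of the other 14 libraries, and no other library passed 5448. None of the other 9 genes was highest in that library. Of 7 other tested genes whose start lies within 500000 bases of the Nkx2-2 start, 0 were highest there. Among these, the antisense gene Nkx2-2os was at 15.7 in that library, against 17.1 to 96.8 in the others. No source used here gives the strand setting of the counting, and reads of Nkx2-2 and of Nkx2-2os cannot be told apart where they overlap.

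**Figure D3:**
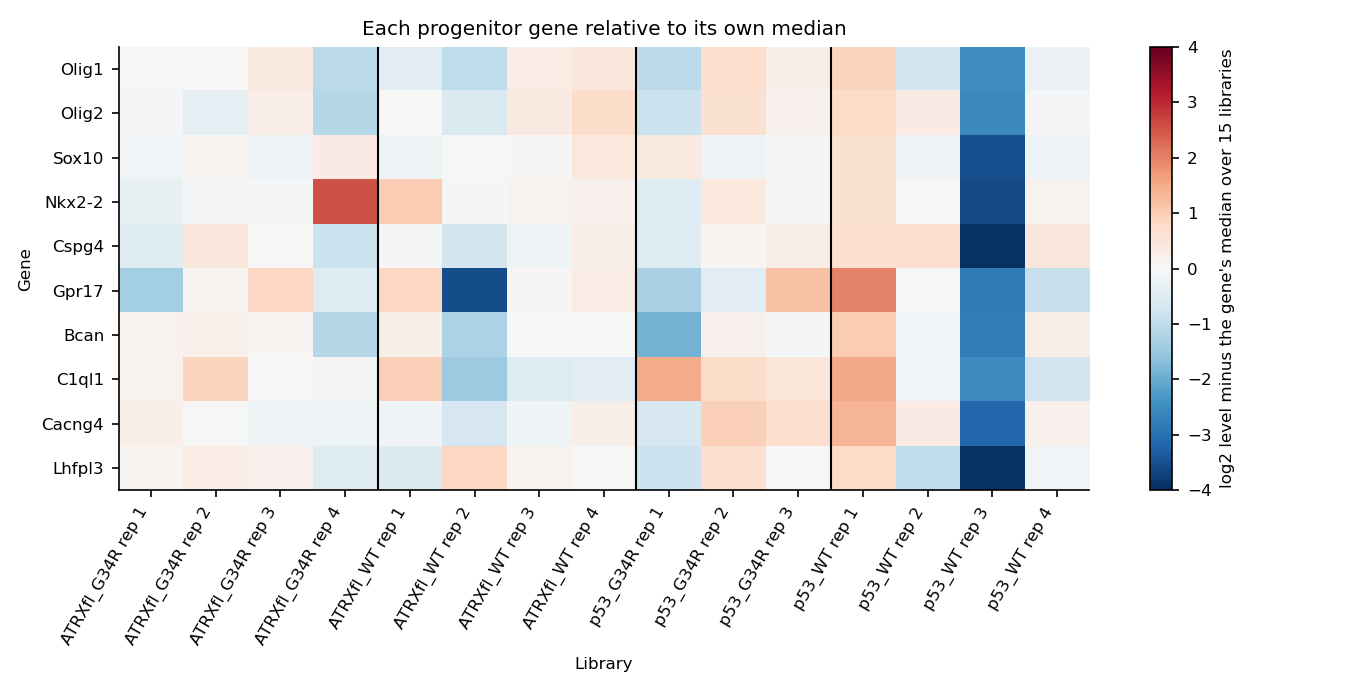
Log2 level of each of the 10 genes (rows) in each of 15 libraries (columns, groups divided by lines), minus the gene's median over the 15. All 10 rows are blue in p53_WT replicate 3, and the darkest red cell is Nkx2-2 in ATRXfl_G34R replicate 4, at 15651 normalized counts.

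Of the surface and matrix genes, Cspg4, on chromosome 9 (56865033 to 56899870, plus strand), encodes NG2, the proteoglycan by which progenitors are stained. It stood at 24726, 46996, 34447 and 18864 normalized counts in ATRXfl_G34R, at 32281, 20662, 30504 and 41321 in ATRXfl_WT, at 24168, 36728 and 41537 in p53_G34R, and at 53818, 55447, 2215 and 47099.9 in p53_WT. The p53_WT group held both the 3 highest libraries of the 15 and the lowest. The lowest of the other 14 was 8.52 times p53_WT replicate 3.

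Gpr17, on chromosome 18 (31942997 to 31949636, minus strand), encodes a receptor of committed precursors. It stood at 7126, 19701, 32518 and 12859 normalized counts in ATRXfl_G34R, at 33084, 1583, 19192 and 22740.4 in ATRXfl_WT, at 7464, 13887 and 41325 in p53_G34R, and at 72776, 18451, 2619.8 and 9816 in p53_WT. It was the most variable of the 10 genes, with 46.0 times between the lowest and the highest of the 14 libraries, and its SD of log2 levels lay at the 90.0th percentile of the tested genes. The lowest library was ATRXfl_WT replicate 2, below p53_WT replicate 3. The highest, p53_WT replicate 1, was the highest for 7 of the 10 genes. Per kb, Gpr17 was 0.18 of Cspg4 in ATRXfl_WT replicate 2 and 3.11 times Cspg4 in p53_WT replicate 1, and it was above Cspg4 in 8 of 15 libraries.

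Bcan, on chromosome 3 (87987531 to 88000230, minus strand), encodes brevican, a matrix proteoglycan made by progenitors and by astrocytes. It ranged from 12508 to 32175 normalized counts in ATRXfl_G34R, from 11462 to 32856 in ATRXfl_WT, from 7501 to 31458 in p53_G34R, and from 4028 to 56468 in p53_WT. Each group held a library far below its others: ATRXfl_G34R replicate 4, ATRXfl_WT replicate 2, p53_G34R replicate 1 and p53_WT replicate 3. The first 3 of these were also the 3 lowest of the 14 other libraries for Olig1.

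C1ql1 and Cacng4 both lie on chromosome 11 on the minus strand, at 102939264 to 102946688 and at 107732357 to 107794557. C1ql1 encodes a secreted C1q-like protein. It stood at 4299, 7283, 3908 and 3816 normalized counts in ATRXfl_G34R, at 7624, 1424, 2709.5 and 2825 in ATRXfl_WT, at 11051, 6466 and 5428 in p53_G34R, and at 11241, 3643, 683 and 2286 in p53_WT. Of the 12 libraries outside p53_G34R, 3 lay above the lowest p53_G34R library, with 1 each in ATRXfl_G34R, ATRXfl_WT and p53_WT.

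Cacng4 encodes an auxiliary subunit of AMPA-type glutamate receptors. It ranged from 17431 to 24026 normalized counts in ATRXfl_G34R, from 12516 to 23238 in ATRXfl_WT, from 12718 to 38566 in p53_G34R, and from 2256 to 50944 in p53_WT. Lhfpl3, on chromosome 5 (22746059 to 23275597, plus strand), encodes a membrane protein of the LHFPL family. It ranged from 12487 to 22278 in ATRXfl_G34R, from 12436 to 31696 in ATRXfl_WT, from 9887 to 28202 in p53_G34R, and from 1150.5 to 30570.1 in p53_WT. The groups overlapped for both genes. Unlike the other 9 genes Lhfpl3 was highest in ATRXfl_WT replicate 2, the library with the lowest Gpr17.

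**Figure D4:**
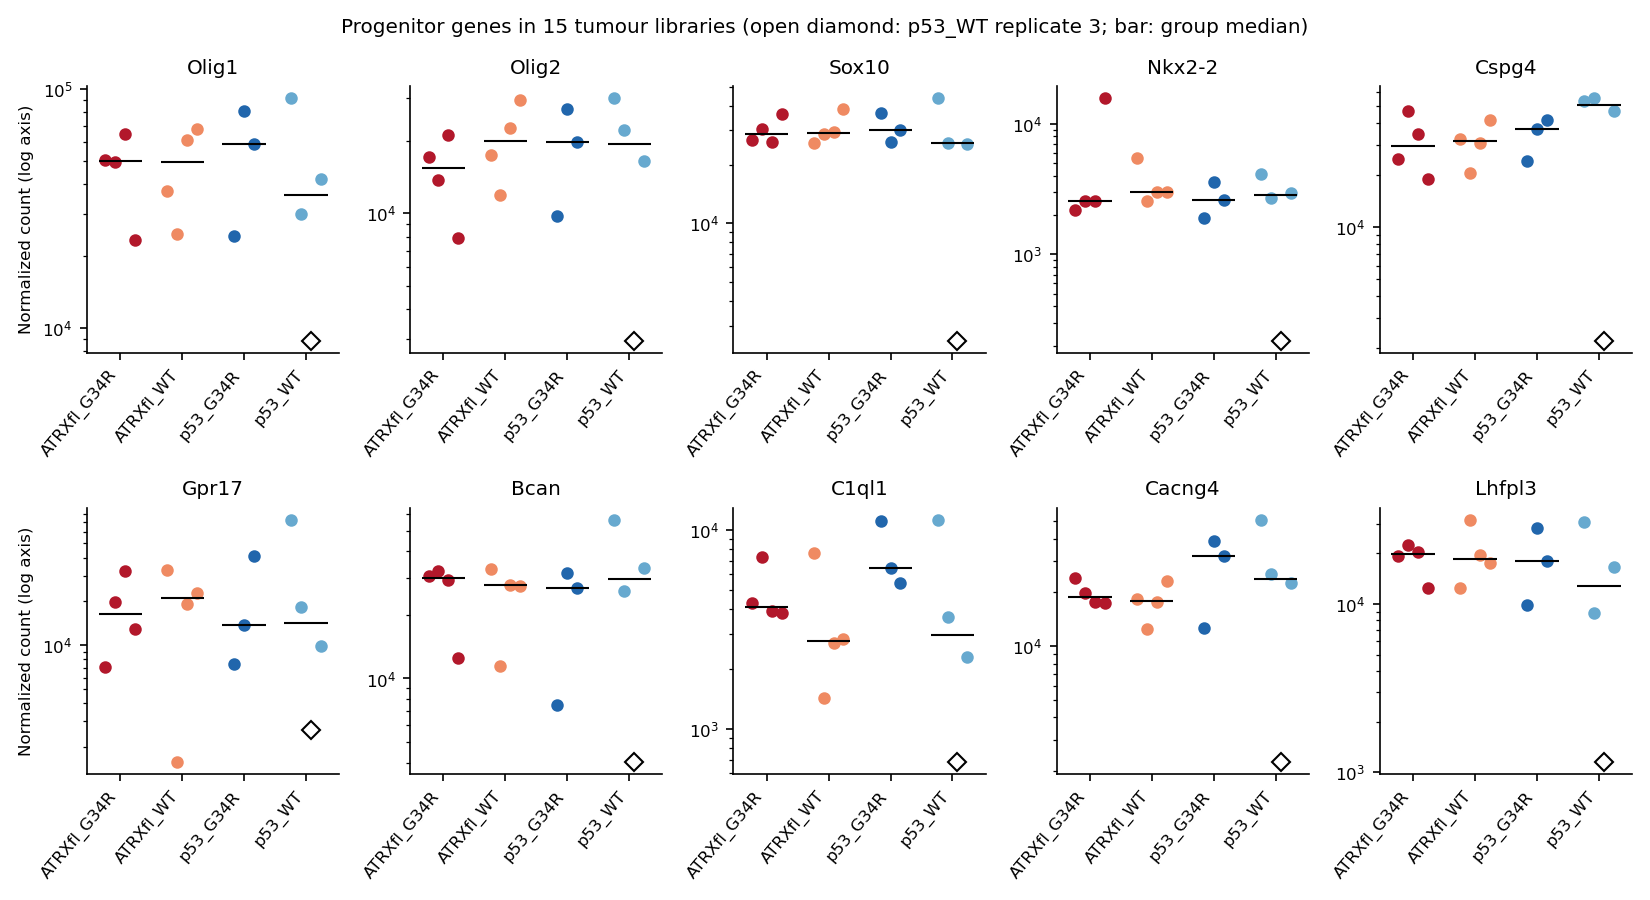
Normalized count (log axis) of each of the 10 genes in ATRXfl_G34R, ATRXfl_WT, p53_G34R and p53_WT libraries, with a point per library and a bar at the group median. The open diamond, p53_WT replicate 3, is the lowest point of every panel but that of Gpr17, where ATRXfl_WT replicate 2 (1583) is lower.

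By level per kb, the order of the medians over 15 libraries was Olig1 (23018), Sox10 (9435), Olig2 (6935), Bcan (6838), Lhfpl3 (5594), Cacng4 (5574), Gpr17 (3552), Cspg4 (2887), C1ql1 (2653) and Nkx2-2 (937). Olig1 was above Sox10 in 13 of 15 libraries, and C1ql1 above Nkx2-2 in 14 of 15. Cacng4 was above Gpr17 in 13 of 15. The other neighbours crossed more often, and their order is within the spread between libraries. Sox10 was above Olig2 in 12 of 15 libraries, Olig2 above Bcan in 10 and Bcan above Lhfpl3 in 11. Lhfpl3 was above Cacng4 in 4 libraries, Gpr17 above Cspg4 in 8 and Cspg4 above C1ql1 in 6.

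Across the 14 libraries, 8 of the 45 pairs among the 10 genes had an adjusted permutation p under 0.05 by Pearson's r and 1 by Spearman's rho. The median r was 0.25, and 35 of 45 were positive. The 8 pairs joined Olig1, Olig2, Cspg4, Cacng4 and Bcan, and none held Sox10 or Nkx2-2. Olig1 and Bcan had r = 0.80 and rho = 0.56 (permutation p = 0.00021 and 0.0417, adjusted 0.00472 and 0.214), and r = 0.69 without the 2 farthest libraries. No r between pairs of the 10 genes is given over all 15 libraries, because p53_WT replicate 3 lies apart from the rest for 9 of the 10 genes.

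The first comparison asks whether the H3.3G34R histone goes with other levels of the progenitor genes where Atrx is floxed. No gene of the 10 passed the test between ATRXfl_G34R and ATRXfl_WT, and Sox10 had the narrowest interval. Sox10 averaged 29859 ± 4755 normalized counts in ATRXfl_G34R and 30683 ± 5558 in ATRXfl_WT (SD, n = 4 each), a log2 change of -0.03 (95% CI -0.52 to 0.45). C1ql1 averaged 4827 ± 1651 in ATRXfl_G34R and 3646 ± 2727 in ATRXfl_WT, a log2 change of 0.63 (-0.38 to 1.64) with the smallest p of the 10 (limma, adjusted p = 0.9997). The median change was 0.04 over the 10 genes and 0.00 over all tested genes, with 5 genes higher and 5 lower. The intervals of 6 genes lay inside a 2-fold change either way (Olig1, Sox10, Cspg4, Bcan, Cacng4 and Lhfpl3), and that of Gpr17 ran from -1.63 to 2.32. Limma called 0 of 10 genes at an adjusted p under 0.05, against 0.0% of 17521 tested genes. The edgeR quasi-likelihood test called 0 of 10 (0.0% of all). DESeq2 called 0 of the 9 genes with an adjusted p (0.151%), and 0 of 9 were called in the authors' deposited table (0.182%). The groups overlapped for 10 of 10, where 2.16% of all genes had groups that did not.

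Nkx2-2 averaged 5752 ± 6602 in ATRXfl_G34R and 3509 ± 1309 in ATRXfl_WT, a log2 change of 0.22 (SE 0.58) that became -0.45 without ATRXfl_G34R replicate 4. Gpr17 averaged 18051 ± 10929 in ATRXfl_G34R and 19149.8 ± 13110 in ATRXfl_WT. Its log2 change of 0.35 (SE 0.88) compares means of log2 levels and has the other sign than the difference between these means of counts. It became -0.64 without ATRXfl_WT replicate 2. The authors' deposited log2 change was -0.08.

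The second comparison asks the same of the tumours without floxed Atrx, and it rests on p53_WT replicate 3. Over all libraries 9 of the 10 genes had a higher mean log2 level in p53_G34R than in p53_WT, with a median change of 0.63. Without that library 8 of 10 were lower, with a median of -0.30. Cspg4 averaged 34144 ± 8968 in p53_G34R and 39645 ± 25214 in p53_WT (SD, n = 3 and 4), or 52122 ± 4425 in the 3 other p53_WT libraries. Its log2 change was 0.50 (95% CI -2.08 to 3.07) with the library and -0.65 (-1.33 to 0.04) without it. C1ql1 averaged 7648 ± 2992 in p53_G34R and 4463 ± 4677 in p53_WT, or 5723 ± 4826 without the library, with log2 changes of 1.37 (-0.57 to 3.305) and 0.68 (-0.69 to 2.05). The log2 change of Sox10 was 0.89 with the library and -0.01 without it. By limma 0 of 10 genes were called (0.0% of 17873), by edgeR 0 of 10 (0.0%), by DESeq2 0 of 10 (0.0794%) and 0 of 10 were called in the authors' deposited table (0.0578%). The groups overlapped for 10 of 10 genes (2.61% of all genes did not overlap), and without p53_WT replicate 3 Cspg4 alone did not overlap, being lower in p53_G34R (7.1% of all genes did not overlap).

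**Figure D5:**
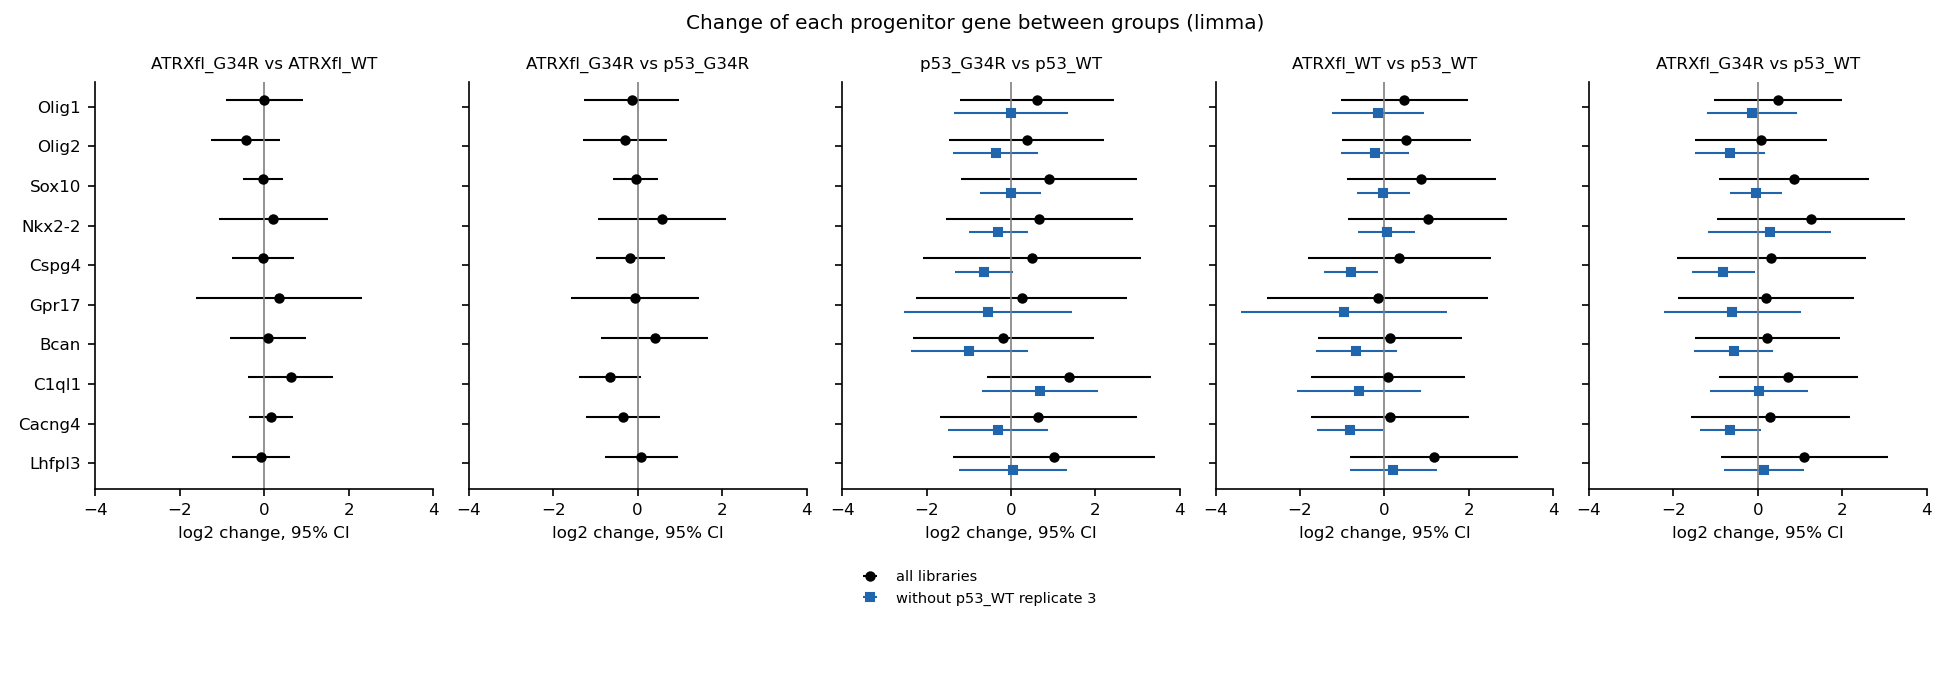
Log2 change of the 10 genes in 5 comparisons of groups, the first group named over the second, with 95% confidence intervals from limma. Black points use all libraries and blue squares leave out p53_WT replicate 3, which moves the median change to -0.30 in p53_G34R vs p53_WT, against 0.63 with it.

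The next comparison sets floxed against intact Atrx under H3.3G34R, and neither group holds p53_WT replicate 3. C1ql1 averaged 4827 ± 1651 normalized counts in ATRXfl_G34R and 7648 ± 2992 in p53_G34R (SD, n = 4 and 3), a log2 change of -0.65 (95% CI -1.39 to 0.08; limma, adjusted p = 0.9999). Cacng4 averaged 19747 ± 3072 in ATRXfl_G34R and 27704 ± 13408 in p53_G34R, a change of -0.36 (SE 0.38). Bcan averaged 26168 ± 9183 in ATRXfl_G34R and 21942 ± 12715 in p53_G34R, and its change of 0.40 (SE 0.55) became -0.25 without p53_G34R replicate 1, where Bcan was lowest. The median over the 10 genes was -0.10, with 3 higher and 7 lower. None of the 10 was called by limma (0.0229% of 17459 genes) or edgeR (0.0%), DESeq2 called 0 of 10 (0.486%) and 0 of 10 were called in the authors' deposited table (0.538%). The groups overlapped for 10 of 10, where 4.64% of all genes did not overlap.

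Floxed was then set against intact Atrx under H3.3WT, a comparison that again rests on p53_WT replicate 3. The median change over the 10 genes was 0.41 with 9 higher, and -0.41 with 8 lower without that library. Cspg4 averaged 31192 ± 8468 in ATRXfl_WT and 39645 ± 25214 in p53_WT, with a log2 change of 0.35 (95% CI -1.82 to 2.52). Without the library its change was -0.79 (-1.42 to -0.16), with a limma adjusted p = 0.685. EdgeR and DESeq2, which compare means of counts and not of log2 values, gave -0.37 and -0.36 with all libraries. Cacng4 averaged 17929 ± 4384 in ATRXfl_WT and 25250.2 ± 19967 in p53_WT, or 32915 ± 15670 without the library. Its change was 0.12 with it and -0.82 (-1.61 to -0.04) without it (limma, adjusted p = 0.685). These 2 genes were the members with an unadjusted p under 0.05, against 1191 of 17535 tested genes without the library. With that library limma called 0 of 10 (0.0335% of 17893 genes), edgeR 0 of 10 (0.0112%), DESeq2 0 of 10 (0.383%) and 0 of 10 were called in the authors' deposited table (0.352%). The groups overlapped for 10 of 10 genes (2.65% of all did not overlap), and without that library Cspg4 alone did not overlap, being lower in ATRXfl_WT (8.34% of all).

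The last comparison of groups sets tumours with both changes against those with neither. All 10 genes had a higher mean log2 level in ATRXfl_G34R than in p53_WT, with a median change of 0.40. Without p53_WT replicate 3, 7 were lower and the median was -0.36. With all libraries 5 of the 10 had the other sign by edgeR and by DESeq2. Nkx2-2 averaged 5752 ± 6602 in ATRXfl_G34R and 2495 ± 1638 in p53_WT, with a log2 change of 1.25 (95% CI -0.97 to 3.48), and 0.28 (-1.18 to 1.74) without that library. Lhfpl3 averaged 18634 ± 4273 in ATRXfl_G34R and 14297 ± 12547 in p53_WT, with a change of 1.11 (SE 0.88), and 0.14 without it. Cspg4 had the smallest p without the library, at a change of -0.82 (limma, adjusted p = 0.556, and at least 0.587 under every other alternative). With all libraries limma called 0 of 10 (0.0227% of 17659 genes), edgeR 0 of 10 (0.0113%), DESeq2 0 of 10 (0.328%) and 0 of 10 were called in the authors' deposited table (0.38%). With the scaling of the authors' deposited table for this pair, the groups overlapped for 10 of 10 genes with p53_WT replicate 3 (2.94% of all did not overlap). On that scaling they also overlapped for 10 of 10 without it (9.01%). With the 15 libraries scaled together, Cspg4 did not overlap without that library. It reached 46996 in ATRXfl_G34R, and the lowest of the other p53_WT libraries stood at 47099.9. The share over all genes on the joint scale was not counted. Each group stands in 2 or 3 of these 5 comparisons, which are therefore not independent.

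Pooled over both histones, the 10 genes did not separate the 8 libraries with floxed Atrx from the 7 without. The median change was 0.17 with all libraries and -0.20 without p53_WT replicate 3, against 0.00 and 0.01 over all tested genes. Nkx2-2 had the smallest p with all libraries, at a change of 0.82 (95% CI -0.39 to 2.04, limma adjusted p = 0.931). Without that library Cacng4 had it, at -0.58 (-1.15 to -0.02, limma adjusted p = 0.601), and the intervals of 6 of 10 genes lay inside a 2-fold change. The change of Sox10 was 0.46 (-0.52 to 1.44) with the library and -0.03 (-0.39 to 0.33) without it. The 3 tools called 0 of 10 each: limma (0.107% of 17776 genes), edgeR (0.0731%) and DESeq2 (0.428%). The sets overlapped for 10 of 10, where 0.135% of all genes did not overlap.

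Pooled over both states of Atrx, the 7 H3.3G34R libraries had a median change of 0.34 over the 10 genes against the 8 H3.3WT libraries, and -0.03 without p53_WT replicate 3, with 0.00 over all tested genes in both fits. C1ql1 had the smallest p in both fits, at 0.97 (95% CI -0.07 to 2.002, limma adjusted p = 0.9994) and at 0.65 (-0.16 to 1.46, limma adjusted p = 0.9995) without that library. The change of Olig2 was -0.07 (SE 0.44) with it and -0.41 (SE 0.28) without it. Again 0 of 10 were called by limma (0.0% of 17776 genes), edgeR (0.0%) and DESeq2 (0.0198%). The sets overlapped for 10 of 10, where 0.0113% of all genes did not overlap.

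The interaction asks whether the change with H3.3G34R differs between the 2 states of Atrx. Its median over the 10 genes was -0.58 with all libraries and 0.23 without p53_WT replicate 3, against -0.01 and -0.02 over all tested genes. Its sign turned for 3 of the 10 genes (Nkx2-2, Cspg4 and Cacng4). Sox10 had the smallest p with all libraries, at -0.93 (95% CI -2.91 to 1.05, limma adjusted p = 0.9996), and stood at -0.03 (-0.78 to 0.72) without that library. For the interaction 0 of 10 were called by limma (0.0% of 17776 genes), edgeR (0.0%) and DESeq2 (0.0647%). At this number of libraries the intervals of 9 genes without that library still held a 2-fold difference of the change, so that a difference of that size was not excluded for them.

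The unadjusted p was under 0.05 for 0 of the 10 genes in each of the 8 comparisons by limma, edgeR and DESeq2 with all libraries. In ATRXfl_G34R vs ATRXfl_WT, DESeq2 gave an adjusted p for only 9 of the 10. The authors' deposited table gave no p for Nkx2-2 there.

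Other lists of the lineage were set beside the 10 genes, and none of their members was called by limma in the pooled comparisons. Of 21 other progenitor genes, 12 were higher with floxed Atrx (median 0.06), and 2 were higher without p53_WT replicate 3 (median -0.14). Pdgfra, the receptor of PDGFA, averaged 87866 ± 26244 normalized counts in floxed libraries and 80956 ± 45412 in the others (SD, n = 8 and 7), a log2 change of 0.49 (SE 0.55). Without p53_WT replicate 3 the 6 others averaged 93537 ± 33841, and the change was -0.06 (SE 0.27). With H3.3G34R 15 of those 21 genes were higher (median 0.26), or 9 without that library (median -0.13). Of 14 genes of committed precursors, 13 were higher with floxed Atrx (median 0.42), and 11 without that library (median 0.27). This list includes Gpr17, which is also among the 10 genes. With H3.3G34R 8 of 14 were higher (median 0.06), or 3 without that library (median -0.09). Among these Bmp4, a secreted signal that committed precursors make, averaged 688 ± 456 with floxed Atrx and 328 ± 124 without (SD, n = 8 and 7). Its log2 change was 1.01 (SE 0.28, limma adjusted p = 0.493), or 0.95 (adjusted p = 0.414) without that library. Itpr2, a calcium channel of the endoplasmic reticulum, averaged 8149 ± 3054 with floxed Atrx and 4601 ± 1751 without, a change of 0.83 (SE 0.30, limma adjusted p = 0.796), or 0.64 (adjusted p = 0.572) without that library. Both ranges overlapped. With floxed Atrx 0 of 10 proliferation genes were higher (median -0.14, or -0.41 without p53_WT replicate 3). Of 8 endothelial genes 8 were higher (median 0.56, or 0.84 without p53_WT replicate 3). ATRXfl_WT replicate 1, a floxed library, summed to 83606 over the endothelial genes, against 7593 to 19805 in the other 14. Over the genes of mural cells and fibroblasts it summed to 108441, against 4826 to 27573. How far these counts rest on ATRXfl_WT replicate 1 was not tested. Of 14 genes of mature oligodendrocytes 9 were higher (median 0.08), or 13 without p53_WT replicate 3 (median 0.52). Leaving out that library removes a high one from the intact side only. ATRXfl_G34R replicates 3 and 4, at sums of 125259 and 60433, stayed on the floxed side. The remaining libraries with intact Atrx reached at most 31713. ATRXfl_G34R replicate 3 was also the highest library left for the neuron and astrocyte lists. The part of all these lists in the levels of the progenitor genes was not tested. Of 12 neuron genes 0 were higher with floxed Atrx (median -0.56), or 7 without p53_WT replicate 3 (median 0.09). Of 11 microglial genes 4 were higher (median -0.06), or 8 without it (median 0.305), and of 11 astrocyte genes 7 (median 0.28), or 8 without it (median 0.61). Mrc1 had the smallest p of the microglial list between floxed and intact Atrx. Its log2 change was -2.25 (SE 0.48, limma adjusted p = 0.151), or -2.11 (adjusted p = 0.195) without p53_WT replicate 3. Of 8 genes of mural cells and fibroblasts 4 were higher with it and without it (medians -0.39 and -0.33).

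Among the regulators of the lineage, 10 of 14 tested genes were higher with floxed Atrx (median 0.30) and 8 of 14 without p53_WT replicate 3 (median 0.08). With H3.3G34R 8 of 14 were higher (median 0.05), or 4 of 14 without that library (median -0.16). Sox11, a Sox factor of immature neurons and progenitors, averaged 4344 ± 1548 in H3.3G34R libraries and 2619.5 ± 1105 in H3.3WT libraries (SD, n = 7 and 8). Its change was 0.75 (SE 0.29, limma adjusted p = 0.9994), or 0.63 (SE 0.27, adjusted p = 0.9995) without that library. Id4, which encodes an inhibitor of basic helix-loop-helix factors, averaged 175 ± 179 in H3.3G34R libraries and 330 ± 281 in H3.3WT libraries, a change of -1.16 (SE 0.54, limma adjusted p = 0.9994), or -0.86 (SE 0.48) without that library.

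Of the 13059 other genes with a mean of at least 100 normalized counts, the 6 whose log2 levels over the 15 libraries were most like the mean of the 10 genes were B3gat2, Frmd7, Midn, Efs, Phldb1 and Gm36325. Their Pearson's r ran from 0.95 to 0.97 with p53_WT replicate 3 included. No p is given because they were picked as the highest. B3gat2 had r = 0.97 and rho = 0.79, and r = 0.86 without p53_WT replicates 3 and 1, the 2 libraries farthest from the median. Phldb1 had r = 0.95 and rho = 0.90, and r = 0.62 without those 2. All 6 were lowest in p53_WT replicate 3, with B3gat2 at 227 normalized counts there, against a median of 2504 over the 15 libraries.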

How the data were processed

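RNA from 15 mouse tumours was isolated with Qiagen RNeasy and sequenced from TruSeq mRNA libraries, as the labels' protocols state. The submitters' processing notes name STAR 2.7, HTSeq, DESeq2 and the build mm10; no sources used here state the settings, strand or annotation. The authors deposited 5 tables, each with a signal per library, which is the read count divided by a size factor of that table, and its mean. Each table further holds the authors' log2 fold change and its standard error. A Wald score and raw and adjusted p-values stand beside it, per the file headers. All values were whole multiples of 1 read (100% within 0.01), so that reads were recovered by division; 3 columns where 1 read is near 1 were left out of this step. Libraries held 22807315 to 35679129 reads in genes. IDs were matched to GENCODE vM21 (54079 IDs, 99.7%), which may not be the annotation the authors used.

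Each pair of groups was fitted with limma 3.58.1 (trend, robust) in R 4.3.3 on log2 of the deposited signal plus 1, keeping genes whose mean was 10 or more, and Benjamini-Hochberg adjustment ran over all tested genes (threshold 0.05). The pseudocount understates changes of low genes. The interaction and pooled comparisons used all 15 libraries scaled together by the median of ratios, and values of single libraries and group means use this scale. Whether a pair of groups overlapped was counted on the deposited signal, and whether the pooled sets overlapped on the joint scale. Alternatives were no filter, pseudocounts of 0.5 and 5, edgeR 4.0.16, DESeq2 1.42.0, TMM scaling, libraries of a shared title code summed, log2 Xist as a covariate, all 4 groups in a fit, libraries rich in cortex transcripts left out, and each library left out. The fits were tested on simulated data with known changes. Apart from those changes the simulated libraries had a common mean per gene. None was built to stand apart as p53_WT replicate 3 does, so that the simulation cannot show how such a library acts on the fits. No 2 libraries of a group were the same library deposited again (the smallest of 21 chi-square values per degree of freedom was 89.8, where 1 is a repeat). This does not tell separate preparations of 1 tumour from separate tumours. Correlations used 100000 permutations, with SciPy 1.17.1. Values of counts carry no interval for molecules, since the reads have no molecular identifiers.

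The 10 genes and the 10 further lists were chosen with earlier results of these data known. The genes named are the 10 in every comparison, Atrx, Pdgfa, Pdgfra and Snap25, and the 6 most alike. From some of the other lists, genes among the 4 with the smallest p in a pooled fit are also named, but not all of them. Neighbours of Nkx2-2 were chosen after its values were seen. Promoter windows are from RefSeq GRCm38.p6.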

Additional observations from a re-analysis of the deposited data

Results flagged for a closer look

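In groups of 4 libraries, a library far from its 3 fellows was looked for in 30 combinations of gene and group, by Dixon's ratio on log2 levels. Chance flags about 1 in 20 such groups, and 5 flags were found.

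Nkx2-2 stood at 15651 normalized counts in ATRXfl_G34R replicate 4, with a ratio of 0.919. Bcan stood at 12508 in the same library, the low end of its group, with a ratio of 0.900. Bcan stood at 11462 in ATRXfl_WT replicate 2, also the low end, just past the critical value. In p53_WT replicate 3, Cspg4 stood at 2215 with a ratio of 0.949 and Nkx2-2 at 219 with a ratio of 0.856. These 2 values belong to the library in which 9 of the 10 genes were lowest.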

How the results depend on the processing

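No paired analysis was possible because the labels give no replicate numbers, and the numbers used here only name the libraries. Under all 160 combinations of comparison and alternative, 0 of the 10 genes were called, and the lowest adjusted p was 0.556 (Cspg4 in ATRXfl_G34R vs p53_WT without p53_WT replicate 3). The Atrx difference kept its direction and its side of the threshold under the 17 alternatives run for it. Of the 1600 log2 changes of single genes under alternatives, 48 moved by at least their standard error. Of these, 18 were without p53_WT replicate 3, 22 without the libraries rich in cortex transcripts and 8 without another library. In p53_G34R vs p53_WT and ATRXfl_WT vs p53_WT the only such rich library was p53_WT replicate 3, so that both settings were the same fit. Moves in those comparisons are counted under both, and the 160 combinations are not all separate fits. Of 80 gene and comparison values, 17 kept their sign under every alternative. EdgeR and DESeq2, which compare means of counts, gave the other sign than limma for 23 of the 80 values each, 5 of them in ATRXfl_G34R vs p53_WT. The median turned sign without p53_WT replicate 3 in 6 comparisons, and the cause was not tested. Over all genes, calls depended on the tool: limma called 0, 0, 4, 6 and 4 genes in the 5 comparisons of groups in the order given above, edgeR 0, 0, 0, 2 and 2, and DESeq2 33, 14, 111, 78 and 75. For the pooled Atrx comparison the counts were 19, 13 and 101, for the pooled histone comparison 0, 0 and 7, and for the interaction 0, 0 and 16. With limma and other settings, calls ranged from 0 to 12 in ATRXfl_G34R vs p53_G34R, from 2 to 8 in ATRXfl_WT vs p53_WT, from 2 to 8 in ATRXfl_G34R vs p53_WT and from 15 to 27 in the pooled Atrx comparison. With 3 or 4 libraries a group, intervals of the comparisons with p53_WT were at least 1.505 wide to each side on the log2 scale with all libraries. Estimated changes of the 10 genes below that size could not reach an unadjusted limma p under 0.05 there.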
